A study of Danio rerio with 9 samples.

Results

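The 9 genes described here are induced in stressed cells, and their products act in arrest, slower growth, cell death or feedback on this response. They were followed across whole zebrafish embryos in which hypusination of the translation factor eIF5A, or the factor itself, was targeted. The 9 genes are mdm2, cdkn1a, ccng1, gadd45aa, sesn3, phlda3, bbc3, baxa and casp8, taken by gene symbol from the 24614 genes in the table. They were chosen from the differences between the morpholino groups in these same libraries, so their differences are given as a description, without a test. Each of the 3 groups had 3 libraries of polyadenylated RNA from whole embryos 24 hours after fertilization, and the injected morpholino was a control one, one to dhps or one to eif5a1/2. The dhps gene encodes deoxyhypusine synthase, which begins the conversion of a lysine of eIF5A to hypusine. The labels' treatment text counts the 24 hours to RNA extraction from the morpholino instead. No source used here gives the strain, the morpholino dose, the number of embryos pooled or the clutch of each library, so replicates may share a clutch and p-values measure the spread between these libraries. A morpholino is an antisense oligomer that blocks translation or splicing of its target, and all embryos of the series, the controls included, had been injected with one.

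Cells that sense DNA damage, faulty ribosomes or other stress switch on a shared set of genes. Some of the products hold the cell cycle, some slow growth, some open the mitochondrial route to apoptosis, and the ubiquitin ligase encoded by mdm2 limits the response through negative feedback. In zebrafish embryos this set is also known to be induced by some morpholinos apart from their intended target. No mutant or rescued embryos were part of the data analysed here, and such an effect was not tested.

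The libraries held 15952644 to 17482536 counts, and a member gene had between 56 and 51628 counts in a library. All 9 members passed the filter on low counts. All 11 sets of cell type markers, from neurons, muscle and epidermis to phagocytes, had a marker at a CPM (counts scaled to the effective size of each library) of at least 1 in every library. The eif5a transcript was at 227 ± 12.7 CPM in the eif5a1/2 libraries against 1363 ± 169 in control (SD, n = 3), and the dhps transcript at 9.38 ± 1.02 in the dhps libraries against 14.5 ± 1.35. The eif5a2 transcript was at 213 ± 67.7 CPM in the eif5a1/2 libraries and 278 ± 79.8 in control, a log2 difference of -0.38 that did not pass (edgeR adjusted p = 0.722). By edgeR's quasi-likelihood test the fall of eif5a had an adjusted p of 0.000188 and that of dhps 0.0485, and the latter passed in 2 of 9 fits that leave out 1 library, those without control 2 or eif5a1/2 2. The first principal component, with 62.6% of the variance, did not separate the groups. Control 2 and eif5a1/2 2 scored 24.4 and 59.2, with the dhps libraries at 27.3 to 58.7, while the other control and eif5a1/2 libraries scored -72.6 to -21.4. The 5 libraries with positive scores also held relatively more reads from long transcripts.

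Among dhps embryos all 9 genes lay higher than in control embryos, by 1.86-fold (baxa) to 2.92-fold (cdkn1a), with every dhps library above every control library. Of all 17031 genes tested, 15.2% were higher, 15.7% lower and 30.9% in either direction without overlap in this comparison. In eif5a1/2 embryos 6 of the 9 lay below every control library (6.65% of all genes did, and 12.4% lay apart in either direction), 0 lay above (5.78%), and the other 3 overlapped with control. The 6 were casp8, phlda3, cdkn1a, bbc3, mdm2 and gadd45aa, and the 3 were ccng1, sesn3 and baxa. This holds for CPM as scaled here. In the authors' TPM (counts scaled to transcript length and library size) casp8, cdkn1a, bbc3, mdm2 and gadd45aa overlapped with control. For mdm2 the TPM ran from 11.43 to 29.09 against 14.55 to 27.57, and for casp8 from 2.06 to 5.42 against 4.84 to 10.36. Of the 6, phlda3 alone stayed below every control library in TPM (7.06 to 9.59 against 11.57 to 19.64). Between the knockdowns all 9 were lower in eif5a1/2 than in dhps embryos without overlap, as were 10.1% of all genes, with 10.8% higher and 20.9% in either direction. Because these comparisons chose the members, nothing is read from the counts. Cell type markers were set against the same shares of all genes, and nothing is read from their counts either. Of the 34 markers, 4 were higher and 8 lower in dhps than in control libraries without overlap (15.2% and 15.7% of all genes). In eif5a1/2 against control libraries 3 were higher and 4 lower (5.78% and 6.65%). In eif5a1/2 against dhps libraries 1 was higher and 2 were lower (10.8% and 10.1%). Among those lower in dhps were the neuronal marker elavl3 (88.9 to 105 against 131 to 181 CPM), the muscle marker tnnt3a (277 to 318 against 429 to 627) and the neural progenitor marker neurog1 (23.3 to 28.4 against 33.3 to 47.8). Each was named after its values were seen, from a list with other markers of its cell type, and does not stand for the whole list. For elavl3, control 2 and eif5a1/2 2 were the lowest of their groups, at 131 and 101 CPM. The latter lay within the dhps range. Phagocyte markers moved both ways: lyz was lower (7.64 to 9.50 against 15.6 to 22.7 CPM), while lcp1 (9.23 to 12.4 against 6.79 to 8.85) and mpeg1.1 (1.28 to 2.20 against 0.682 to 0.715) were higher. The summed phagocyte markers, to which lyz contributed most in control libraries, spanned 24.1 to 29.6 CPM in dhps, 27.7 to 37.8 in control and 28.5 to 32.8 in eif5a1/2 libraries. Of the 34 markers edgeR called lyz in dhps against control (log2 -1.24 ± 0.232, adjusted p = 0.0372), in 3 of 9 fits with 1 library left out, and none in eif5a1/2 against control. The part of these cell types in the members' differences was not tested. RNA came from whole embryos, in which fewer cells of a type and less RNA per cell cannot be told apart.

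**Figure D1:**
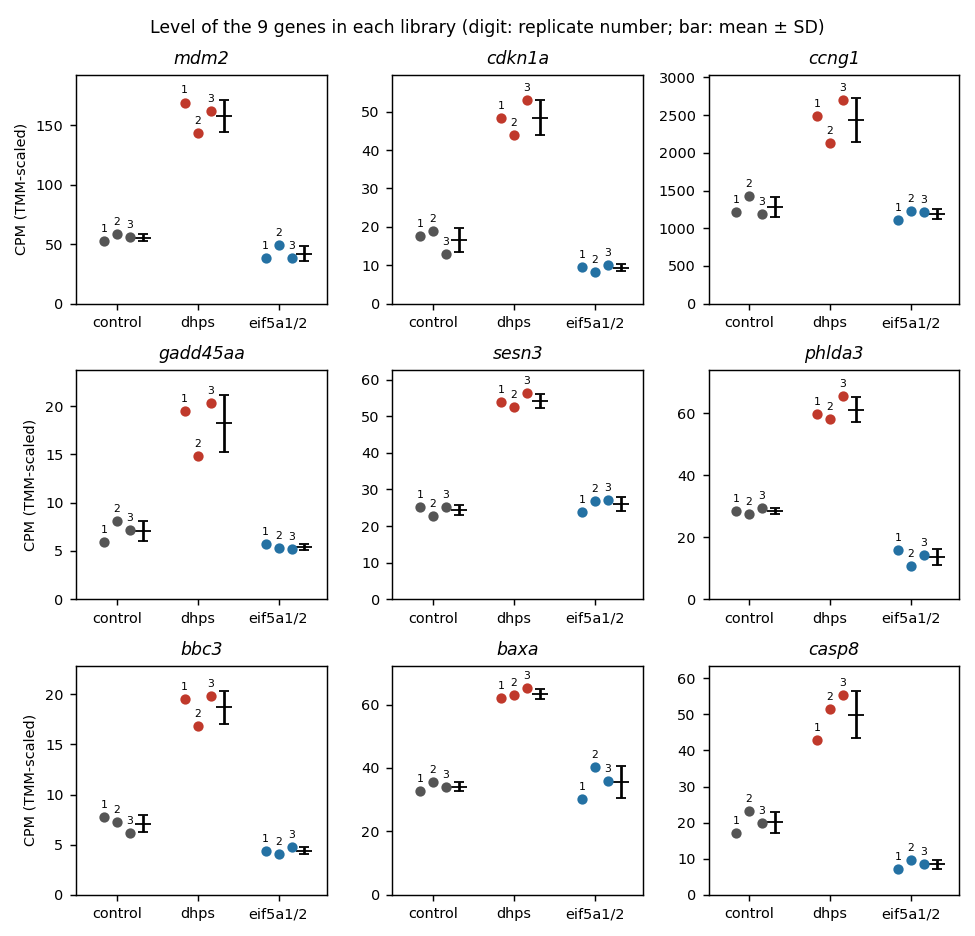
CPM of each of the 9 genes (vertical axis, from 0) in the 3 control, 3 dhps and 3 eif5a1/2 libraries, with the replicate number at each point and the group mean ± SD as a bar. The dhps libraries stand above all others in each panel, and the eif5a1/2 libraries stand below control for casp8, phlda3, cdkn1a, bbc3, mdm2 and gadd45aa.

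The feedback gene mdm2 (gene ID 30637), whose product is a ubiquitin ligase, measured 52.3, 58.5 and 55.7 CPM in control 1, 2 and 3. It measured 169, 143 and 162 CPM in dhps 1, 2 and 3, and 38.4, 49.3 and 38.5 CPM in eif5a1/2 1, 2 and 3. The 3 groups did not overlap, and control 2 and eif5a1/2 2 were each the highest of their group. The log2 difference from control was 1.51 ± 0.135 (SE) in dhps and -0.40 ± 0.133 in eif5a1/2 embryos.

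Among the genes of cell cycle arrest, cdkn1a (100151416) encodes an inhibitor of cyclin-dependent kinases. It was at 17.7, 18.9 and 13.0 CPM in control, 48.4, 43.8 and 53.0 CPM in dhps and 9.67, 8.30 and 9.98 CPM in eif5a1/2 libraries. The dhps libraries therefore lay 2.92-fold above control, the largest of the 9 differences in that direction, while the eif5a1/2 libraries lay 1.78-fold below it. Its log2 differences from control were 1.54 ± 0.155 and -0.84 ± 0.16.

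The gene gadd45aa (393548) encodes a growth arrest protein that binds cell cycle kinases and the replication clamp. It measured 5.94, 8.07 and 7.15 CPM in control, 19.5, 14.8 and 20.3 CPM in dhps and 5.72, 5.30 and 5.21 CPM in eif5a1/2 libraries. The gap between the highest eif5a1/2 library and the lowest control library was narrow, at 5.72 against 5.94 CPM, or 74 against 83 counts, which is within counting error. Its log2 differences were 1.36 ± 0.163 in dhps and -0.39 ± 0.169 in eif5a1/2 embryos against control.

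The cyclin gene ccng1 (171473), whose product in mammals is a stress-induced partner of a protein phosphatase, was by far the most abundant of the set. It had 1210, 1430 and 1189 CPM in control, 2491, 2125 and 2703 CPM in dhps and 1107, 1233 and 1213 CPM in eif5a1/2 libraries. The eif5a1/2 and control libraries overlapped, and only the dhps libraries stood apart. The log2 differences from control were 0.93 ± 0.161 and -0.11 ± 0.159, and the latter was 0.05 when libraries were scaled by their totals alone.

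Both genes that slow growth signalling lay above control in dhps embryos but parted in eif5a1/2 embryos. The sestrin gene sesn3 (406840), whose product restrains the growth kinase complex mTORC1 in mammals, measured 25.3, 22.7 and 25.2 CPM in control, 53.9, 52.6 and 56.3 CPM in dhps and 23.7, 26.9 and 27.1 CPM in eif5a1/2 libraries. Control and eif5a1/2 libraries overlapped, with log2 differences of 1.15 ± 0.101 in dhps and 0.09 ± 0.102 in eif5a1/2 embryos. The gene phlda3 (368779), which encodes a small lipid-binding protein that opposes the survival kinase Akt in mammals, measured 28.5, 27.6 and 29.4 CPM in control, 59.8, 58.1 and 65.7 CPM in dhps and 15.8, 10.8 and 14.4 CPM in eif5a1/2 libraries. Its controls were the tightest of the set relative to their mean (28.5 ± 0.866), and the groups lay far apart. It was 2.15-fold higher in dhps and 2.09-fold lower in eif5a1/2 embryos, and the log2 differences were of similar size and opposite sign.

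The apoptosis genes also fell into both patterns. The BH3-only gene bbc3 (751763), known as puma, whose product frees or activates the pore-forming proteins of the mitochondrion, measured 7.79, 7.29 and 6.14 CPM in control, 19.5, 16.8 and 19.8 CPM in dhps and 4.33, 4.08 and 4.77 CPM in eif5a1/2 libraries. No group overlapped another, and the log2 differences from control were 1.40 ± 0.136 and -0.69 ± 0.143. The pore-forming gene baxa (58081) measured 32.6, 35.5 and 34.1 CPM in control, 62.2, 63.0 and 65.2 CPM in dhps and 30.3, 40.4 and 36.0 CPM in eif5a1/2 libraries. The eif5a1/2 libraries spread across the control range, with the highest value in eif5a1/2 2, and the log2 differences were 0.90 ± 0.118 and 0.06 ± 0.118.

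The gene casp8 (58022) encodes the initiator caspase of the death receptor route. It measured 17.1, 23.1 and 20.0 CPM in control, 42.9, 51.4 and 55.5 CPM in dhps and 7.27, 9.70 and 8.47 CPM in eif5a1/2 libraries. It was 2.48-fold higher than control in dhps and 2.36-fold lower in eif5a1/2 embryos, the widest separation of the knockdowns among the 9 genes (5.86-fold). The log2 differences were 1.31 ± 0.156 and -1.24 ± 0.163, and the authors' deposited table lists 1.31 and -1.23 for the same gene.

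**Figure D2:**
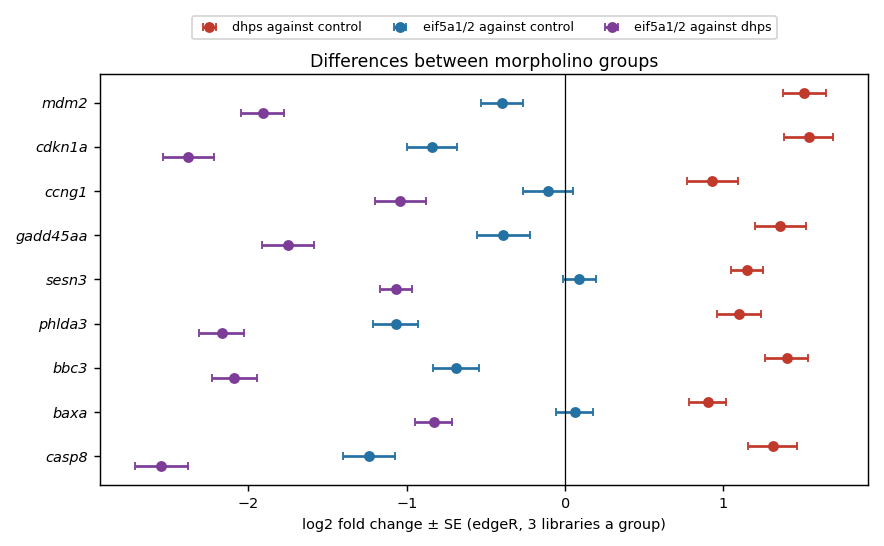
Log2 fold change (horizontal axis) with its SE for each of the 9 genes (rows) in dhps against control, eif5a1/2 against control and eif5a1/2 against dhps, 3 libraries a group. Values of dhps against control lie between 0.90 and 1.54, and those of eif5a1/2 against control run from -1.24 for casp8 to 0.09 for sesn3.

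The order of the genes differed between the knockdowns. In dhps against control it ran from cdkn1a (1.54) and mdm2 (1.51) through bbc3 (1.40), gadd45aa (1.36), casp8 (1.31), sesn3 (1.15) and phlda3 (a fold of 2.15) to ccng1 (0.93) and baxa (0.90). Neighbours in this order lay about an SE or less apart. In eif5a1/2 against control the lowest were casp8 (-1.24) and phlda3 (-1.07), then cdkn1a (-0.84) and bbc3 (-0.69), then mdm2 (-0.40) and gadd45aa (-0.39). The values of ccng1, baxa and sesn3 (-0.11, 0.06 and 0.09) were within an SE of 0. These comparisons share the control libraries, so no correlation between them is given.

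Values of the 9 genes in dhps embryos and of these 6 in eif5a1/2 embryos were also computed within each side of an axis between the libraries. The same libraries chose the members, so a sign that holds there is no support. The axis joins control 2 and eif5a1/2 2 to the dhps libraries. Over the 5 libraries on its positive side, where control 2 and eif5a1/2 2 are the lone samples of their groups, dhps against control ran from 0.77 (ccng1) to 1.43 (mdm2). In the same libraries eif5a1/2 against control was -1.39 for phlda3, -1.28 for casp8, -1.22 for cdkn1a, -0.87 for bbc3, -0.64 for gadd45aa and -0.28 for mdm2. Over the 4 libraries on its negative side it was -0.93, -1.22, -0.63, -0.60, -0.25 and -0.48 for the same genes. The values of cdkn1a, gadd45aa and mdm2 in eif5a1/2 embryos differed by more than 1.5 times between the sides, and those of casp8 hardly did. On the negative side the SE was 0.183 for cdkn1a, 0.209 for gadd45aa and 0.124 for mdm2. The positive side sets 1 library against 1, so nothing is read from these ratios. Scaling by library totals alone raised the median of all genes to 0.365 in dhps and 0.176 in eif5a1/2 embryos against control, and beside that shift mdm2 stood at 1.87 and -0.21 and casp8 at 1.65 and -1.07.

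Among the dhps libraries, dhps 2 was the lowest for 7 of the 9 genes and dhps 3 the highest for 8, where over all genes tested they were so for 33.6% and 30.1%. Control 1, 2 and 3 were the lowest for 4, 2 and 3 genes (24.5%, 41% and 34.4% over all genes). They were the highest for 2, 6 and 1 (22.1%, 43% and 34.9%). In eif5a1/2 1, 2 and 3 the lowest numbered 5, 3 and 1 (39.3%, 41% and 19.7%) and the highest 2, 4 and 3 (36.9%, 42.3% and 20.9%). The median deviation from the control mean, on the log2 scale, was 1.15, 1.11 and 1.48 in dhps 1, 2 and 3 and -0.532, -0.401 and -0.525 in eif5a1/2 1, 2 and 3. In control 1, 2 and 3 it was -0.0629, 0.0772 and 0.00603.

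Levels can be compared between genes per length with TPM (counts scaled to transcript length and library size), which the authors deposited and which also carries the composition of each library. In every library ccng1 ranked first of the 9 genes, mdm2 second and bbc3 last. Control levels were 473 ± 204 TPM for ccng1, 19.3 ± 7.19 for mdm2, 14.7 ± 4.34 for phlda3, 11.9 ± 4.36 for baxa and 6.72 ± 3.16 for casp8. Lower still were cdkn1a at 5.16 ± 2.48, gadd45aa at 4.36 ± 2.01, sesn3 at 4.04 ± 1.06 and bbc3 at 1.16 ± 0.416 TPM. From mdm2 down to sesn3 the ranges of neighbours overlapped in control, where most of the spread was between control 2 and the other libraries. In all 3 control and all 3 dhps libraries phlda3 ranked above baxa, whereas in all 3 eif5a1/2 libraries it ranked below. The caspase gene casp8 ranked at 5 in every control library and at 7 or 8 in the eif5a1/2 libraries, where sesn3 stood at 5. In dhps embryos ccng1 reached 1311 ± 203 and mdm2 81.0 ± 12.1 TPM, and bbc3 4.45 ± 0.58.

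The close relatives of the members were not used to choose them, though they were listed with earlier results of these data known. They were tested with edgeR's quasi-likelihood test over all 17031 genes. The Mdm2 partner gene mdm4, which lacks the ligase activity, went against mdm2: control libraries had 24.8 ± 2.67 CPM (SD, n = 3), dhps libraries 17.1 ± 2.41 and eif5a1/2 libraries 30.7 ± 4.48. It was higher in eif5a1/2 than in dhps embryos by 0.85 ± 0.151 on the log2 scale (edgeR adjusted p = 0.0273), without overlap, and this passed in 5 of 9 fits that leave out 1 library. The cyclin gene ccng2 likewise was higher in eif5a1/2 than in dhps embryos (17.2 ± 1.95 against 9.69 ± 0.582 CPM; log2 0.83 ± 0.168, edgeR adjusted p = 0.0441), where ccng1 was lower. Against control neither passed: mdm4 was at -0.53 in dhps and 0.31 in eif5a1/2 embryos (edgeR adjusted p = 0.129 and 0.591) and ccng2 at -0.41 and 0.43 (0.233 and 0.475).

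**Figure D3:**
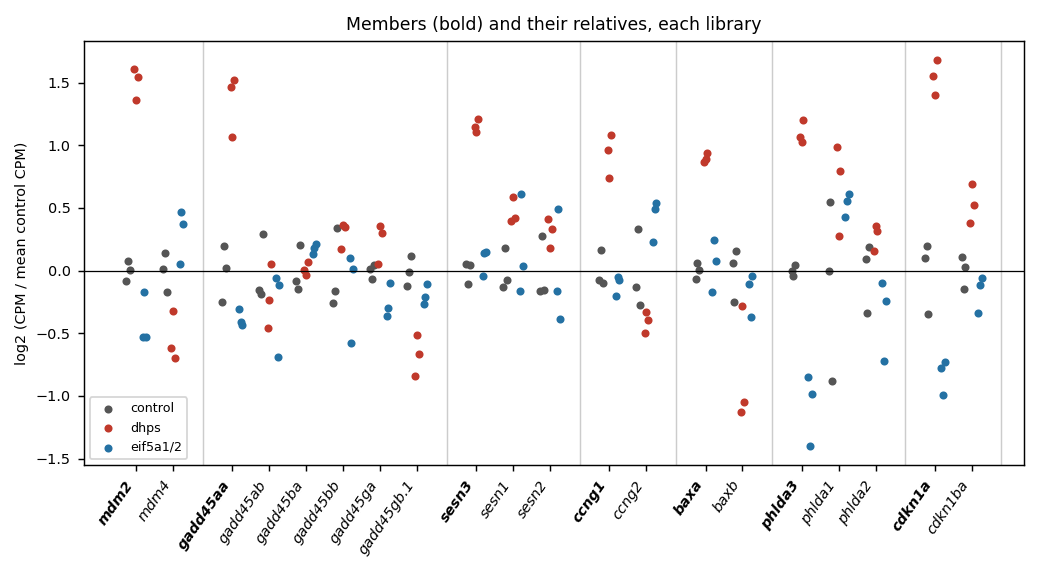
Log2 ratio of the CPM of each library to the mean of the control libraries (vertical axis) for members (bold) and their relatives, in control, dhps and eif5a1/2 libraries. The dhps points of mdm2, gadd45aa, sesn3, ccng1, baxa, phlda3 and cdkn1a lie above all their control points. So do those of the relatives cdkn1ba, sesn1 and gadd45ga, while those of mdm4, ccng2, baxb and gadd45gb.1 lie below 0.

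In the gadd45 family gadd45gb.1, another growth arrest gene, fell in dhps embryos, from 65.0 ± 5.42 to 40.8 ± 4.56 CPM (log2 -0.67 ± 0.119, edgeR adjusted p = 0.0297). It passed in 3 of 9 fits that leave out 1 library. The copy nearest by name to gadd45aa, gadd45ab, was at -0.20 in dhps and -0.27 in eif5a1/2 embryos (edgeR adjusted p = 0.581 and 0.762), and gadd45ga was at 0.24 and -0.24 (0.29 and 0.614). The sestrin genes sesn1 and sesn2 were at 0.47 and 0.30 in dhps embryos (edgeR adjusted p = 0.233 and 0.481), against 1.15 for sesn3. The second bax gene, baxb, measured 4.67 ± 0.658 CPM in control and 2.74 ± 0.954 in dhps libraries, and its log2 difference of -0.76 ± 0.257 did not pass (edgeR adjusted p = 0.176). The genes phlda1 and phlda2 were at 0.68 and 0.28 in dhps and 0.50 and -0.33 in eif5a1/2 embryos, none of which passed. The caspase genes casp8l1 and casp8l2 had at most 3 and 4 counts in a library and were not tested.

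A wider set of 184 genes in 10 lists, by role, gave 175 matches in the table and 157 genes that passed the filter. In dhps against control 2 of the 157 were called, or 1.27%, where 1.33% of all genes were (0.628% higher and 0.699% lower). Both fell: gadd45gb.1 and the stress cofactor gene nupr1b (10.2 ± 2.05 against 26.9 ± 6.5 CPM; log2 -1.40 ± 0.265, edgeR adjusted p = 0.0389). In control 2 nupr1b was at 19.6 CPM, and it was lower still in eif5a1/2 2, against 26.4 to 32.2 in the other control and eif5a1/2 libraries. The median of the 157 was -0.035 and that of all genes 0.003. Against control, edgeR called in eif5a1/2 embryos 0 of the 157, where 0.153% of all genes were called (0.0646% higher and 0.0881% lower). Unadjusted p were under 0.05 for 21, or 13.4%, where 9.1% of all genes were, DESeq2 called 3 and limma-voom 0.

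In eif5a1/2 against dhps 5 of the 157 were called, or 3.18%, where 1.83% of all genes were (0.975% higher and 0.851% lower). Higher in eif5a1/2 embryos were mdm4, ccng2 and the kinase gene cdk2, which drives entry into DNA replication and is a target of the inhibitor encoded by cdkn1a (60.0 ± 3.81 against 38.5 ± 3.09 CPM; log2 0.64 ± 0.129, edgeR adjusted p = 0.0438). Lower were cdkn1ba, a gene for a kinase inhibitor of the same family as cdkn1a (log2 -0.70 ± 0.128, edgeR adjusted p = 0.0298), and the stress-induced transcription factor gene atf3 (-0.91 ± 0.184, edgeR adjusted p = 0.0438). With 1 library left out, ccng2 passed in 3 of 9 fits, cdk2 and cdkn1ba in 2, atf3 in 1 and nupr1b in 3. All 7 calls of these genes held without control 2 and ended without control 1, dhps 1, dhps 3 or eif5a1/2 3. The numbers of related genes called differed between fits. They were 13, 3 and 15 in the 3 comparisons by DESeq2, where 902, 206 and 811 of all genes were called. With a covariate for the length slope of the libraries they were 13, 16 and 23, where 839, 709 and 1377 of all genes were. The main fit called 226, 26 and 311 of all genes. Without dhps 1 the related genes called were 0 in each comparison.

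**Figure D4:**
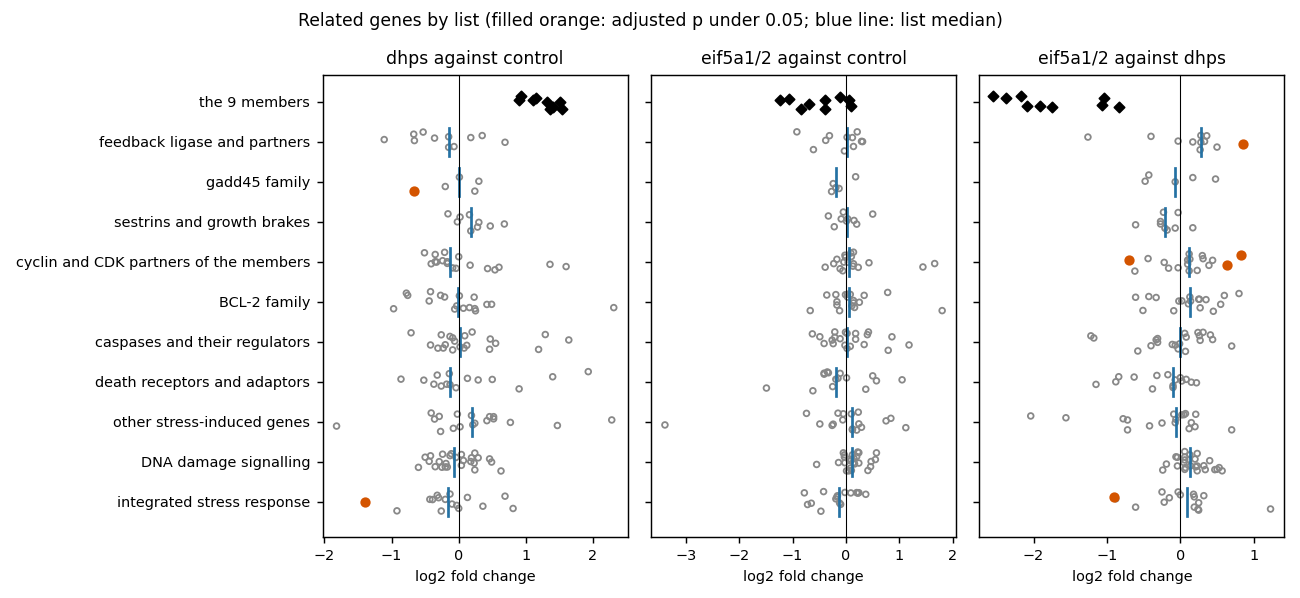
Log2 fold change (horizontal axis) of the 9 members (diamonds) and of each tested gene of the 10 related lists (circles, 1 row a list) in the 3 comparisons, with the list median as a line. Filled circles mark genes with an adjusted p under 0.05, which number 2, 0 and 5, and the list medians lie near 0. The members were chosen from these comparisons, so nothing is read from their place to the right in dhps against control and to the left in eif5a1/2 against dhps.

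Unadjusted p under 0.05 were found for 19.7%, 9.1% and 14.6% of all genes in dhps against control, eif5a1/2 against control and eif5a1/2 against dhps, beside which the counts of the lists below stand. Of the BCL-2 family, whose members promote or block the mitochondrial pore, 0 of 18 were called by edgeR in each comparison, with 5, 1 and 5 at an unadjusted p under 0.05. In dhps embryos the protective gene mcl1a was at -0.97 and bcl2l12 at -0.78 (edgeR adjusted p = 0.166 and 0.155). Control 1, 2 and 3 had 71.5, 39.6 and 75.3 CPM of mcl1a and eif5a1/2 1, 2 and 3 had 78.3, 32.4 and 55.4, so control 2 and eif5a1/2 2 lay near the dhps libraries. In eif5a1/2 embryos bcl2l12 was at -0.67 and the BH3-only gene bmf2 at 0.78 against control (0.432 and 0.71). Counts of bmf2 were low, at 3, 10 and 5 in control and 12, 10 and 10 in eif5a1/2 libraries. The largest departures of eif5a1/2 from dhps by p were bida (0.55) and bcl2l10 (0.26), at adjusted p of 0.178 and 0.211.

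Of the caspases and their regulators 0 of 21 were called, with 3, 2 and 5 at an unadjusted p under 0.05. The inhibitor of apoptosis genes birc5a and birc2 were at -0.71 and -0.31 in dhps embryos (edgeR adjusted p = 0.183 and 0.189). For birc5a, control 2 and eif5a1/2 2 were again low, at 38.2 and 33.9 CPM against 59.5 to 64.0 in the other control and eif5a1/2 libraries. In eif5a1/2 embryos xiap, another such inhibitor, was at 0.34 and the inflammatory caspase gene caspb at -0.49 against control (0.363 and 0.47). The executioner caspase gene casp6b.1 was 1.18 lower on the log2 scale in eif5a1/2 than in dhps embryos (0.154). Its counts were low, at 27, 15 and 26 in dhps and 8, 8 and 9 in eif5a1/2 libraries.

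Of the death receptors and adaptors, 0 of 15 were called, with 3, 3 and 2 at an unadjusted p under 0.05. The adaptor gene pidd1, a scaffold for caspase activation, was at 0.90 in dhps embryos against control and at -1.15 in eif5a1/2 against dhps embryos (edgeR adjusted p = 0.183 and 0.119). The gene cflara, for the decoy that holds casp8 inactive, was at -0.52 in dhps and -0.62 in eif5a1/2 embryos (0.208 and 0.366). The cytokine gene tnfb was at -1.49 in eif5a1/2 against control (0.228), and traf2a was at -0.38 against dhps embryos (0.267). For tnfb the counts were low, at 10, 20 and 10 in control and 3, 6 and 6 in eif5a1/2 libraries.

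Of 18 other stress-induced genes 0 were called, with 3, 4 and 2 at an unadjusted p under 0.05. The transcription factor gene foxo3b had 2.43, 6.50 and 1.86 CPM in the control libraries. The dhps libraries had 21.4, 15.6 and 16.9 CPM and the eif5a1/2 libraries 1.86, 7.83 and 3.08. Its groups did not overlap between dhps and the others, but control 2 and eif5a1/2 2 were raised, and the log2 differences of 2.28 and -2.04 had edgeR adjusted p of 0.0815 and 0.0978. The ubiquitin-like gene isg15 was at -3.39 in eif5a1/2 against control (0.292), and in control 1, 2 and 3 it had 0.429, 5.98 and 1.17 CPM. The nucleotide reductase gene rrm2b was at 0.84 in the same comparison (0.353), foxo3a at -0.36 in dhps against control (0.179) and spata18 at -0.78 in eif5a1/2 against dhps (0.182).

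Of 26 genes of DNA damage signalling edgeR called 0, with 4, 4 and 6 at an unadjusted p under 0.05. The repair genes lig4 and rad50 were at 0.49 and 0.63 in dhps embryos (edgeR adjusted p = 0.151 and 0.164). In eif5a1/2 embryos mre11a and lig4 were at 0.46 and 0.55 against control (0.246 and 0.292), and prkdc and rad54l at 0.40 and 0.50 against dhps (0.0908 and 0.122). In the integrated stress response atf4b, the transcription factor at its centre, was at -0.39 in dhps and -0.65 in eif5a1/2 embryos (0.114 and 0.0691).

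Over all genes edgeR called 1.33%, 0.153% and 1.83% in the 3 comparisons, and 19.7%, 9.1% and 14.6% had an unadjusted p under 0.05. Of the 11 genes listed beside mdm2, 0, 0 and 1 (mdm4) were called, with 4, 1 and 2 at such a p. Of 18 cyclin and kinase partners 0, 0 and 3 were called, with 5, 1 and 4 at such a p. Of 16 genes of the integrated stress response 1, 0 and 1 were called, with 7, 5 and 6 at such a p. Of 5 gadd45 genes 1, 0 and 0 were called, with 1, 0 and 2 at such a p. Of 9 growth brakes 0 were called, with 1, 0 and 1 at such a p. Among the genes listed beside mdm2 the ribosomal protein gene rpl11 was at -1.11 in dhps against control (edgeR adjusted p = 0.149). It had 2717 CPM in control 2 against 4773 and 6466 in control 1 and 3, so it moved with the library axis, whose part in the difference was not tested. The gene rps27l was at -0.92 in eif5a1/2 against control and -1.26 against dhps embryos (0.475 and 0.133). Of the cyclin and kinase partners, cdkn1ba and cdk2 were at 0.54 and -0.51 in dhps embryos (0.083 and 0.0991), and cdkn1ca was at -0.23 in eif5a1/2 embryos (0.594). Among the growth brakes tsc1b was at 0.15 in eif5a1/2 embryos and tsc1a at -0.21 against dhps (0.762 and 0.411).

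Same-numbered control and eif5a1/2 libraries deviated together from their group means. So did eif5a1/2 1 with control 3 (r = 0.597, against 0.403 with control 1), so the number is not shown to be the source. A fit of the 6 control and eif5a1/2 libraries with the replicate number as a block called 351 genes, where the main fit of 9 libraries called 26. The same 6 libraries without the block gave 5, and the block over all 9 libraries gave 14. The paired fit called 7 of the related genes, where each of those other fits called 0. The related genes were rps27l (log2 -1.02 ± 0.174), btg1 (1.47 ± 0.254), rrm2b (0.87 ± 0.152), atf4b (-0.64 ± 0.119), cdk4 (1.56 ± 0.305), atf4a (-0.74 ± 0.164) and rad50 (0.58 ± 0.136). Their edgeR adjusted p in the paired fit ran from 0.0114 to 0.0462. The block was taken up after the correlations in these same libraries were seen, so these p are not those of a planned pairing. Of the 7, atf4b had groups without overlap. Both genes of the central factor of the integrated stress response, atf4a and atf4b, were thus lower in eif5a1/2 embryos when paired, and btg1 and cdk4, an antiproliferative gene and a kinase of early cell cycle progression, were higher. Both followed the library axis: control 1, 2 and 3 had 1.07, 7.34 and 1.09 CPM of btg1 and eif5a1/2 1, 2 and 3 had 1.55, 19.8 and 5.02, and cdk4 had 0.572, 2.57 and 0.854 and then 0.851, 9.80 and 2.20. For atf4a, dhps 1, 2 and 3 had 439, 515 and 501 CPM, also below every control library. Control 1, 2 and 3 had 958, 608 and 1179 CPM of atf4a and eif5a1/2 1, 2 and 3 had 768, 345 and 551. Control 2 and eif5a1/2 2 were likewise the lowest of their groups for rps27l and the highest for rrm2b and rad50. For atf4b they were the lowest by less, at 207 CPM against 227 and 229 in control and 134 against 143 and 146 in eif5a1/2. The part of the axis in the differences of the 7 genes was not tested. In this paired fit the members were at -1.24 ± 0.13 (casp8), -1.08 ± 0.134 (phlda3), -0.82 ± 0.162 (cdkn1a), -0.68 ± 0.195 (bbc3), -0.40 ± 0.117 (mdm2) and -0.38 ± 0.188 (gadd45aa).

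The pattern of mdm2 over the 9 libraries was matched most closely, by Pearson correlation of log2 CPM among named genes outside the 9 members with a mean CPM of at least 1, by mycb, rnf213b, ect2, fsta, ace, ypel2b, rasl11b and ncapd3 (r = 0.992 to 0.977). The correlations describe 9 libraries that share 3 groups and carry no test, and they rest largely on the dhps libraries standing apart. Among the members r was 0.982 (gadd45aa), 0.976 (ccng1), 0.971 (bbc3), 0.963 (cdkn1a), 0.953 (baxa), 0.949 (sesn3), 0.944 (casp8) and 0.914 (phlda3). The gene mycb, for a Myc transcription factor, had a control level of 54.1 ± 1.7 CPM, a dhps level of 73.6 ± 2.42 and an eif5a1/2 level of 49.0 ± 0.945. The gene ect2, for an exchange factor of cell division, measured 30.6 ± 2.56, 83.7 ± 6.86 and 27.0 ± 5.26 CPM, and fsta, for the activin-binding protein follistatin, 22.6 ± 3.61, 76.2 ± 6.64 and 20.8 ± 2.31 CPM. Levels of rnf213b, a ubiquitin ligase gene, were 0.397 ± 0.0601, 3.75 ± 0.275 and 0.224 ± 0.092 CPM in the same order. Its mean of 1.46 CPM met the minimum of 1 only through the dhps libraries, and its levels in the other groups were low. The gene ypel2b followed the same order of groups, at 4.75 ± 0.365, 8.25 ± 0.401 and 3.44 ± 0.169 CPM.

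**Figure D5:**
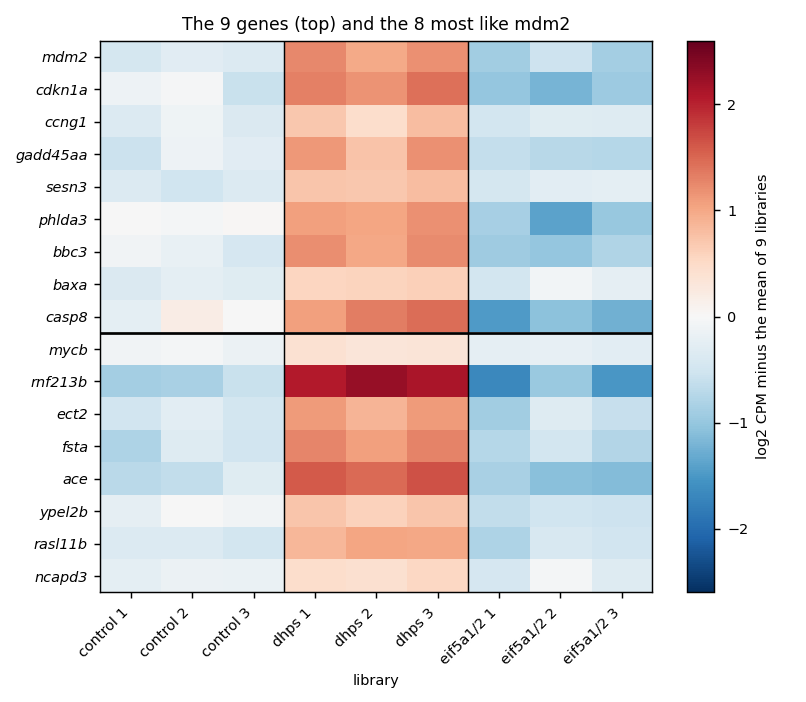
Log2 CPM minus the mean of the 9 libraries (colour) for the 9 members, above the line, and the 8 genes most like mdm2, below it, with libraries in columns by group. The dhps columns are positive in every row, and the eif5a1/2 columns reach their lowest values in rnf213b, casp8, phlda3 and cdkn1a. The level of rnf213b there was low, at a mean of 0.224 CPM.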

How the data were processed

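The authors deposited expected counts per gene and library with reads placed on GRCz11, per the file headers and the submitters' processing notes. The aligner, counter, annotation and use of strand were not given in the sources used here. TPM values and tables with the authors' own log2 fold changes were also deposited, per the file headers. After rounding of the counts, genes were kept by edgeR's filterByExpr (17031 of 24614, with 99.84% or more of each library's reads) and libraries were scaled by TMM, with factors of 0.758 to 1.24. Differences came from the quasi-likelihood test of edgeR (version 4.0.16, under R 4.3.3), fitted once over the 9 libraries with 3 groups and no covariate, with Benjamini-Hochberg adjustment over all genes tested and a call at an adjusted p under 0.05. SEs derive from the F statistic. The code was tested on simulated data.

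Members and lists were chosen with earlier results of these data known. Of 184 related genes 175 were matched, 8 by gene ID in an NCBI table of the assembly GRCz12tu. Named were all members, relatives set by name, related genes called, the 2 with the smallest p of each list and comparison, and the 8 genes most like mdm2. The cell type markers and the genes called only in the paired fit (btg1, cdk4 and atf4a) were named, and mcl1a, birc5a and nupr1b given by library, after their values were seen. Same-numbered libraries of eif5a1/2 and control deviated together (r = 0.403, 0.76 and 0.318), as did eif5a1/2 1 with control 3 and eif5a1/2 3 with control 1 in differently numbered pairs (0.597 and 0.26), so the number is not shown to be the source. Since each same-numbered r was over 0.1, a paired fit of these is given where it moves a count. In dhps against control r was -0.337, -0.413 and 0.0988 and in eif5a1/2 against dhps -0.401, -0.286 and 0.121, so those were not paired. Alternatives were RLE scaling, library totals, no filter, a stricter filter (a CPM of at least 1 in at least 3 libraries), the replicate block, each library left out, control 2 and eif5a1/2 2 left out together, the compared groups alone, DESeq2 (1.42.0), limma-voom (limma 3.58.1), a covariate for the libraries' length slopes and log2(TPM + 0.1) and log2(TPM + 1). The libraries on either side of the axis, the paired fit and robust dispersion were added after the data were seen. Sequences of the genes were not used here.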

Additional observations from a re-analysis of the deposited data

How the results depend on the processing

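No called value of a related gene changed its direction under an alternative that was run. In eif5a1/2 against control the sign of ccng1 changed in 3 of 25 alternatives and that of baxa in 1. All other signs of the members held, which is no support, since these libraries chose the members. Of the members' log2 differences recomputed, 549 moved by less than the spread between replicates and 90 by more. The latter came from TPM in place of counts, from library totals alone, from the 5 libraries with a positive length slope and from a length slope covariate. For mdm2 in dhps against control the values ran from 1.36 to 2.11, and for casp8 in eif5a1/2 against control from -1.35 to -0.77. In eif5a1/2 against control the values of ccng1 ran from -0.24 to 0.16 and those of baxa from -0.04 to 0.33. Counts of calls were far less stable, and the cause was not tested. The numbers of all genes called in dhps against control, eif5a1/2 against control and eif5a1/2 against dhps were 226, 26 and 311. They were 94 (66 higher and 28 lower, where TMM gave 107 and 119), 13 and 138 under library totals, 839, 709 and 1377 with a length slope covariate and 902, 206 and 811 by DESeq2. Without control 2 and eif5a1/2 2 together, when the axis and the dhps group cannot be told apart, they were 6295, 136 and 4858. With the replicate block in all 9 libraries they were 160, 14 and 188. With the compared groups alone, eif5a1/2 against control gave 5 and eif5a1/2 against dhps 170. In eif5a1/2 against control the paired fit gave 351 and the libraries with a negative slope 106. Those with a positive slope gave 49, which sets 1 library against 1, so the spread is that of the dhps libraries alone and the lone samples are assumed to vary like them. With each library left out in turn the 3 comparisons gave 46 to 844, 5 to 19 and 73 to 864. The highest of these came without control 2, eif5a1/2 1 and eif5a1/2 2.

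Related genes called numbered 2, 0 and 5. They were 13, 16 and 23 with the length slope, 13, 3 and 15 by DESeq2 and 60, 2 and 47 without control 2 and eif5a1/2 2 together. In eif5a1/2 against control the paired fit gave 7, the positive slope libraries (again 1 against 1) 2 and the negative slope libraries 1. In eif5a1/2 against dhps there were 3 with library totals, and 0 of these were among the 5. With no filter there were 3 (2 among the 5). There were 2 with the replicate block (2 among the 5) and 1 with these groups alone (1 among the 5). With 1 library left out they were 0 to 12, 0 to 0 and 0 to 10. The fall of dhps was at an adjusted p of 0.0508 with robust dispersion.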
